A study of Mus musculus with 12 samples.

Results

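Klf2, Klf4 and Klf5 were examined as 3 gene loci, through all chromatin accessibility peaks that lay in or around them. Members were the peaks overlapping the GENCODE M21 gene body (GRCm38) with 20 kb added on each side for Klf2 (chr8:72299033-72341656) and Klf5 (chr14:99278691-99335036). For Klf4 a wider region of 95.0 kb was used (chr4:55455000-55550000), set wide to take in distal elements downstream of the gene. On the BGI peak set 35 of 91354 peaks were members, with 11 at Klf2, 16 at Klf4 and 8 at Klf5. On the Illumina peak set 35 of 87027 peaks were members, with 13, 15 and 7. The rule uses position alone, and every member passed the filter on low counts. The windows also hold other genes, among them the protein-coding Gm10282 and part of Eps15l1 at Klf2. A peak named by a locus is thus placed there, and the gene it acts on was not tested.

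The assay was OMNI-ATAC-seq, which uses the Tn5 transposase to cut open DNA and to leave sequencing adapters at the cuts. THY1+ cells were sorted from mouse embryonic fibroblasts (MEFs) and THY1-/SSEA1+/EPCAM+ cells from mouse embryonic stem cells (mESCs), both of C57/Bl6 background. Each cell type gave 3 libraries, MEF 1, 2 and 4 and mESC 1, 3 and 5. Each library was read on a BGI DNBSEQ-G400 and an Illumina HiSeqX10 instrument, which made 12 samples in 4 groups of 3. The 2 platforms thus read the same 6 libraries and are no independent replicates of each other.

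MEF samples held 20.1 to 21.7 M reads in peaks and mESC samples 15.9 to 17 M, and levels are given in CPM, the count scaled to 1 M reads in peaks. A member held between 3 and 1699 reads in a sample. All member peaks were 502 bp wide, so their CPM do not differ through width. The level of a peak could differ between platforms, so member peaks were ranked by their CPM on BGI only. The labelled cell types were checked at the promoter peaks of defining genes on BGI. Of 7 mESC markers, 6 were higher in mESCs, and the fucosyltransferase gene Fut4 was lower at a log2 fold change of -0.67. Of 8 MEF markers 7 were lower in mESCs and Pdgfra did not pass the test. Of other lineages, the endodermal Sox17 and Gata4 (2.50 and 0.57) and the macrophage gene Cd68 (2.21) were higher in mESCs and Gata6 (-0.64) was lower. The trophectoderm gene Elf5 (0.05) did not pass, nor did any of the 3 endothelial markers with a promoter peak. Cdh5, Tie1, Emcn, Cdx2, Ptprc and Spi1 had no promoter peak in the set. The part of such cells in the results below was not tested. In bulk samples, fewer cells with an open site and less opening per cell cannot be told apart.

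Krüppel-like factors are zinc finger transcription factors that bind GC-rich and CACCC-type DNA through their C-terminal fingers. Klf2, Klf4 and Klf5 share much of their function in mESCs, where they sustain naive self-renewal together with OCT4, SOX2, NANOG and ESRRB. Klf4 responds to LIF through STAT3 and is one of the classical factors that reprogram fibroblasts into pluripotent cells. Elsewhere, Klf2 is known from endothelium and T cells, Klf4 from skin and gut epithelium and Klf5 from proliferating epithelia.

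Sequences of peaks with a clear difference between the cell types are shown first. Each is the middle stretch of a peak. For each locus the peak with the lowest adjusted p among those higher in mESCs was taken, 2.7 kb upstream of the Klf2 start (chr8:72316268-72316468), 55.0 kb downstream of the Klf4 start (chr4:55477332-55477532) and 22.2 kb downstream of the Klf5 start (chr14:99320804-99321004), all on the + strand of GRCm38. The most MEF-biased peak by the same rule at Klf4, 10.5 kb upstream (chr4:55542901-55543101), stands beside them. Capitals mark matches on either strand to 7 motifs: CCACNCCC for KLF, ATGCAAAT (octamer), TCAAGGTCA (ESRRB), TTCCNGGAA (STAT), TGANTCA (AP-1), GGAATG (TEAD) and CATTGT (SOX).
Klf2, 2.7 kb upstream, higher in mESCs: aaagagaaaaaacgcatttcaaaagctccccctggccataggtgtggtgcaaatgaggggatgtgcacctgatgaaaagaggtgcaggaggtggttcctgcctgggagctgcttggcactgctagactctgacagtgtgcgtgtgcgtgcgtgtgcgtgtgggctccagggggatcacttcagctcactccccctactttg
Klf4, 55.0 kb downstream, higher in mESCs: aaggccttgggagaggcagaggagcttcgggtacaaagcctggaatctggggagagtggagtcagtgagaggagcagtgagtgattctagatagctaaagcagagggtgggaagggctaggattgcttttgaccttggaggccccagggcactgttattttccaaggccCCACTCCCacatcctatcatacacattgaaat
Klf5, 22.2 kb downstream, higher in mESCs: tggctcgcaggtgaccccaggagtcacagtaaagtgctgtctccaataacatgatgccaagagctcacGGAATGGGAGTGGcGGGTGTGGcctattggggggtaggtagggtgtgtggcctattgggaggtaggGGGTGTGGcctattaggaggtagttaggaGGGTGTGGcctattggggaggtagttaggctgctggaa
Klf4, 10.5 kb upstream, higher in MEFs: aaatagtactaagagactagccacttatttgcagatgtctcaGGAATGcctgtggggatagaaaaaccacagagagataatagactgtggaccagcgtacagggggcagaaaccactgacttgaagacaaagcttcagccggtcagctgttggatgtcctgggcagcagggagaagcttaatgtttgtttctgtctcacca
The Klf5 stretch held 4 KLF matches, the first of which shares 1 letter with the TEAD match. The Klf4 stretch that was higher in mESCs held 1 KLF match, the Klf4 stretch that was higher in MEFs held 1 TEAD match, and the Klf2 stretch held none of the 7. Over all peaks, 13.5% hold a KLF match and 18.5% a TEAD match in the middle stretch.

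The start sites, at which both cell types were open, are shown by the 250 bases before the RefSeq start (GRCm38.p6). Of the 3 genes 2 were matched in the promoter table, Klf2 (chr8:72318812-72319061, + strand) and Klf4 (chr4:55532476-55532725, - strand). Neither stretch held any of the 7 motifs, and a KLF match is in 15.9% of all 32851 promoter stretches of this length.
Klf2 promoter: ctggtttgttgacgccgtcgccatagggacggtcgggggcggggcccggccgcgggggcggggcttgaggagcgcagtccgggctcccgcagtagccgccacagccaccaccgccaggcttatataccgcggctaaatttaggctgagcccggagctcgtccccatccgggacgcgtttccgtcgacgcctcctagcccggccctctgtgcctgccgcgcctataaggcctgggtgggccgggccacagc
Klf4 promoter: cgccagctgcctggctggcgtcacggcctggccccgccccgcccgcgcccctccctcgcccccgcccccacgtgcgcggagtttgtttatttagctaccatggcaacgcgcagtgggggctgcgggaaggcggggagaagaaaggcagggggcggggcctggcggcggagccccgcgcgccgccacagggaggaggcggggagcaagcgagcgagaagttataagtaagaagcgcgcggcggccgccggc

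The promoters were accessible in both cell types, and the large differences lay in the distal peaks. On BGI, edgeR's quasi-likelihood test called 21 of the 35 members higher and 9 lower in mESCs at a Benjamini-Hochberg adjusted p under 0.05, beside 40.9% of all peaks higher and 43.2% lower. On Illumina it called 21 higher and 7 lower, beside 42.1% and 42.4%. Members had a median log2 fold change of 1.87 with BGI reads and 1.88 with Illumina reads, and all peaks of -0.08 and -0.03. Of the 7 BGI members within 1 kb of an annotated start, 1 was higher and 2 were lower (31.3% and 41% of all promoter peaks), and none reached a log2 fold change of 1 in size. Of the 28 others, 20 were higher and 7 lower (45.5% and 44.3% of all other peaks), with a median of 2.67 against 0.04. A peak entered the set through the authors' reproducible list of either cell type, and 19 members were on the mESC list only, 6 on the MEF list only and 10 on both. A peak on 1 list had to be high in that cell type, so the count of 18 called higher among the 19 is a description.

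**Figure D1:**
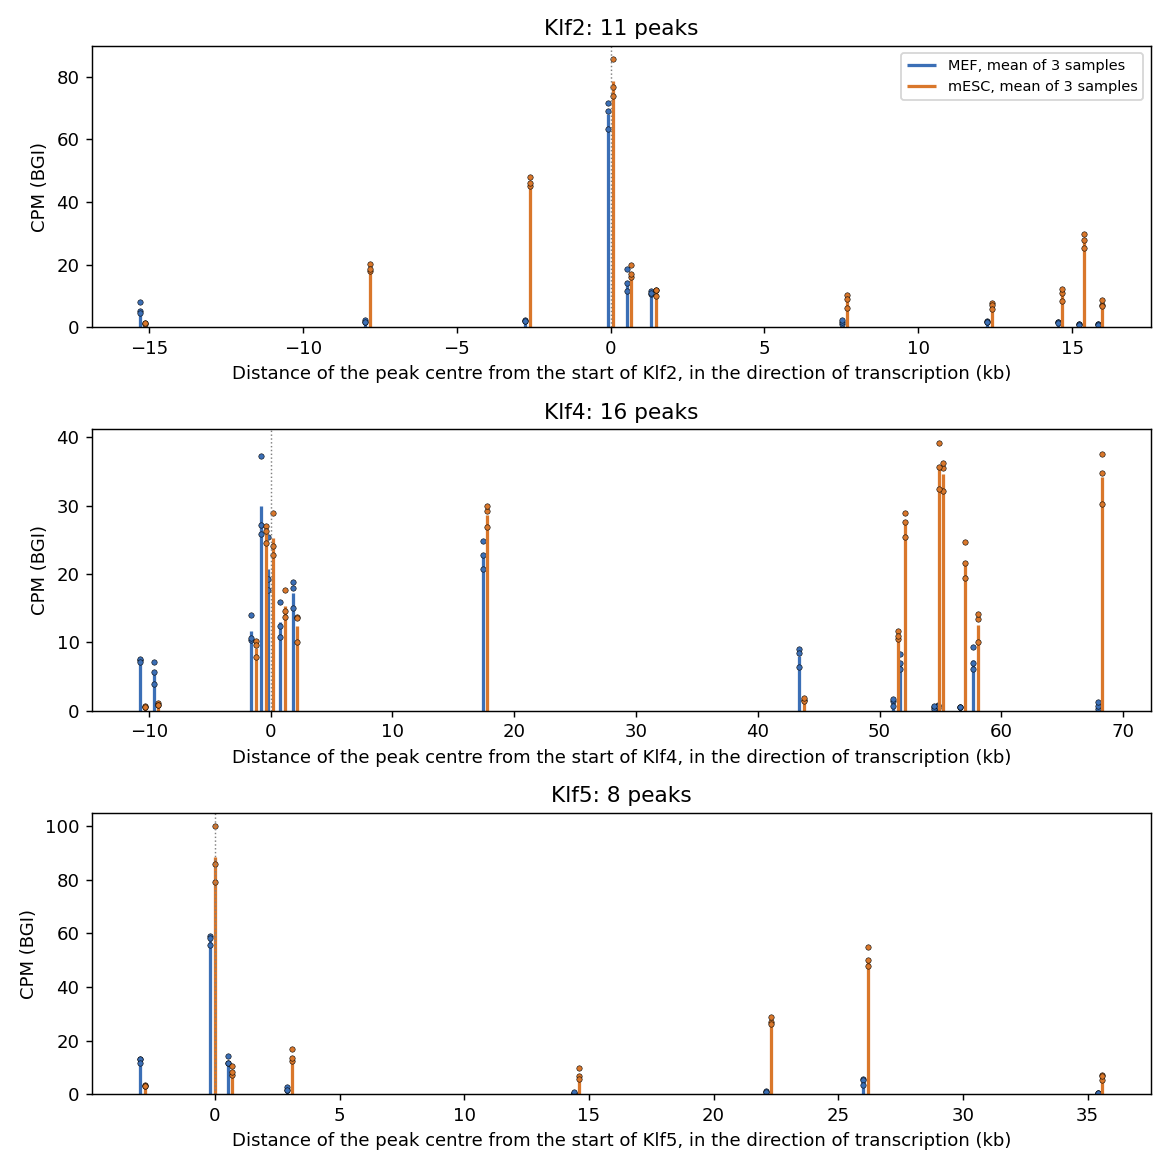
CPM on BGI (y axis) of every member peak at its distance from the gene's start in kb, positive in the direction of transcription (x axis), with bars at the mean of 3 samples and points for single samples. At each start both colours stand high, while most distal peaks carry tall mESC bars and short MEF bars, such as the Klf4 peaks beyond 50 kb.

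At Klf2 the promoter was the tallest peak in both cell types. The promoter peak (chr8:72318735-72319236), which covers the start, 5′ UTR and first coding bases, had 63.3, 69 and 71.8 CPM in MEFs 1, 2 and 4 and 73.8, 85.6 and 76.9 CPM in mESCs 1, 3 and 5. Every mESC sample was above every MEF sample, yet the difference was small and did not pass (log2 fold change 0.15 ± 0.09 SE, edgeR adjusted p = 0.127). It passed under RLE scaling (edgeR adjusted p = 0.0404), under DESeq2 (0.0182) and with fixed depths (edgeR, 0.0149). Fixed depths set every MEF library size to 60 M reads and every mESC library size to 45 M, without TMM scaling. In the samples of both platforms on the same peak, the order from low to high was MEF on BGI (68 ± 4.31 CPM, SD, n = 3), MEF on Illumina (74.5 ± 3.61), mESC on BGI (78.7 ± 6.11) and mESC on Illumina (81.7 ± 7.18). Neighbours in that order differed by less than the sum of their SDs, while each of the 6 libraries was higher on Illumina than on BGI, a difference that was not tested. Peaks in the body of Klf2, 0.6 and 1.4 kb after the start, averaged 14.7 and 11.1 CPM over the MEF samples and 17.7 and 11.2 CPM over the mESC samples on BGI, and neither passed the test. The former passed without MEF 4, at a log2 fold change of 0.39 in place of 0.20 (adjusted p = 0.0171).

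Most distal peaks of Klf2 were higher in mESCs. Of 9 BGI members outside the promoter 7 were higher, 1 was lower and 1 did not pass (45.5% of all other peaks were higher and 44.3% lower). Of 11 on Illumina 7 were higher, 2 lower and 2 did not pass, beside 27285 higher and 24337 lower of all 57367 other peaks there. The tallest, 2.7 kb upstream (chr8:72316118-72316619, intergenic), had 2.12, 2.39 and 2.04 CPM in MEFs and 45, 48 and 46.2 CPM in mESCs. All mESC samples were thus far above all MEF samples (log2 fold change 4.34 ± 0.13 SE, edgeR adjusted p = 6.57e-14). The largest change was 15.3 kb downstream (chr8:72334109-72334610), where MEFs had 0.923, 1.04 and 0.797 CPM and mESCs 29.9, 27.8 and 25.3 CPM, a log2 fold change of 4.83 ± 0.18. Its neighbour 15.9 kb downstream (chr8:72334666-72335167) rose by less, with 0.884 ± 0.251 CPM in MEFs and 7.56 ± 1.06 CPM in mESCs (SD, n = 3). A peak 7.9 kb upstream (chr8:72310862-72311363) had 1.83 ± 0.521 and 18.9 ± 1.09 CPM in the same order.

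In the opposite direction, 1 distal Klf2 peak on BGI and 2 on Illumina were called taller in MEFs. The peak in both sets lay 15.2 kb upstream (chr8:72303589-72304090, intergenic), with 5.22, 4.52 and 8.16 CPM in MEFs and 1.39, 1.01 and 1.24 CPM in mESCs. The groups did not overlap (log2 fold change -2.36 ± 0.31 SE, edgeR adjusted p = 1.24e-06). The other, in the Illumina set alone, lay 15.8 kb upstream (chr8:72302941-72303442), with 4.06, 6.06 and 6.05 CPM in MEFs and 1.56, 0.767 and 1.43 CPM in mESCs (log2 fold change -2.15 ± 0.31 SE, adjusted p = 3.87e-06). Also on Illumina, a peak 4.0 kb downstream had 2.57, 3.88 and 10.1 CPM in MEFs 1, 2 and 4 and 7.5 to 11.5 CPM in mESCs. MEF 4 stood among the mESC samples there, and the peak, which did not pass with all samples (log2 fold change 0.69, adjusted p = 0.0661), passed without MEF 4 (1.42, adjusted p = 8.16e-06).

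At Klf4 the pattern depended on the distance from the gene. Of the 9 BGI members less than 50 kb downstream or upstream of the start, 1 was higher and 6 were lower in mESCs, while all 7 members beyond 50 kb downstream were higher (40.9% and 43.2% of all peaks were higher and lower). Of the 8 nearer members on Illumina 1 was higher and 4 were lower (42.1% and 42.4% of all Illumina peaks). Several of the small differences near the start were called under some settings and not under others. The start of Klf4 (chr4:55532466, - strand) was covered by a peak (chr4:55532219-55532720) with 17.7, 19.3 and 25.4 CPM in MEFs and 22.8, 29 and 24.1 CPM in mESCs on BGI. MEF 4 lay within the mESC range, and the log2 fold change of 0.22 ± 0.14 did not pass on BGI (adjusted p = 0.14) but did on Illumina (0.23, adjusted p = 0.0319). The Illumina call was lost without MEF 1 (adjusted p = 0.112), MEF 2 (0.22, at a log2 fold change of 0.14), mESC 1 (0.0821) or mESC 3 (0.141). The BGI peak passed without MEF 4 (log2 fold change 0.38, adjusted p = 0.0107), with the reads of both platforms summed (0.0407) and with fixed depths (0.0243). The tallest promoter peak, 0.6 kb upstream (chr4:55532769-55533270), had 25.8, 27.2 and 37.2 CPM in MEFs and 27.1, 26.3 and 24.5 CPM in mESCs. The groups overlapped, and the peak was called lower in mESCs narrowly on BGI (log2 fold change -0.27 ± 0.12, edgeR adjusted p = 0.0493), and it was called lower with Illumina reads too (-0.29, adjusted p = 0.00938). MEF 4 was the highest sample, and without it the BGI value was -0.11 (adjusted p = 0.396). The BGI call was also lost when any mESC library was left out (adjusted p 0.0666 to 0.165) and with DESeq2 (0.0684). With fixed depths the call was lost on both platforms, at -0.129 on BGI (adjusted p = 0.36) and -0.158 on Illumina (0.17).

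The CPM of this Klf4 promoter peak was higher on Illumina. On the same peak 0.6 kb upstream, Illumina gave 42.6, 42.3 and 50.1 CPM in MEFs and 36.1, 42.3 and 36.7 CPM in mESCs. Each of the 6 libraries was higher on Illumina than on BGI, a difference in level that was not tested. The order from low to high was mESC on BGI (26 ± 1.32 CPM, SD, n = 3), MEF on BGI (30 ± 6.23), mESC on Illumina (38.4 ± 3.41) and MEF on Illumina (45 ± 4.41), where neighbours differed by less than the sum of their SDs. GC content was 67.5% in this peak and 77.3% in the peak over the start, against a median of 51% over all peaks. The Klf2 promoter peak, at 69.7% GC, was also higher on Illumina. The Klf5 promoter peak, at 68.1% GC, was not, with 57.7 CPM in MEFs and 88.6 CPM in mESCs on BGI against 57.2 and 84.4 CPM on Illumina. The part of GC content in the platform levels was not tested.

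Far downstream of Klf4 lay the largest changes of the 3 loci. The 7 peaks between 51.3 and 68.1 kb from the start had mean levels of 0.501 to 7.43 CPM in MEFs and 11.1 to 35.7 CPM in mESCs. On BGI the largest log2 fold change was 54.7 kb downstream (chr4:55477526-55478027, intergenic), where the samples had 0.6, 0.249 and 0.747 CPM in MEFs and 35.6, 39.2 and 32.4 CPM in mESCs. The ratio of means was 67.2, with all MEF samples near 0 (log2 fold change 5.98 ± 0.22 SE, edgeR adjusted p = 2.78e-13). It shares 158 bp with the peak 55.0 kb downstream whose sequence is shown above (0.625 ± 0.249 and 34.7 ± 2.13 CPM), so those 2 are not separate sites. The outermost peak, 68.1 kb downstream (chr4:55464129-55464630), is in an intron of the long non-coding RNA gene Gm12510. It had 0.277, 0.646 and 1.24 CPM in MEFs and 30.3, 37.6 and 34.8 CPM in mESCs, a log2 fold change of 5.51 ± 0.25. Without MEF 4, the highest MEF sample there, it was 6.13. On Illumina the peak 56.8 kb downstream had a larger log2 fold change (6.01) than the peak at 54.7 kb (5.63).

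Other peaks of this downstream group differed in how closed they were in MEFs. The smallest change was 57.9 kb downstream (chr4:55474348-55474849), with 6.97, 6.06 and 9.26 CPM in MEFs and 13.4, 10.1 and 14.1 CPM in mESCs (log2 fold change 0.68 ± 0.18 SE, edgeR adjusted p = 0.00233, and 0.561 to 0.855 when single libraries were left out). The peak 56.8 kb downstream (chr4:55475449-55475950) was at 0.508, 0.497 and 0.498 CPM in MEFs and 24.7, 21.6 and 19.4 CPM in mESCs, with a log2 fold change of 5.37 ± 0.22. The peak 51.9 kb downstream (chr4:55480332-55480833) was already at 6.92, 8.25 and 6.12 CPM in MEFs and reached 27.6, 25.4 and 29 CPM in mESCs, a 3.85-fold ratio of means. It was on the reproducible lists of both cell types on both platforms. Its neighbour 51.3 kb downstream (chr4:55480922-55481423) went from 1.32 ± 0.516 to 11.1 ± 0.563 CPM.

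Between these and the gene, a peak 17.6 kb downstream (chr4:55514608-55515109) was open in both cell types, with 22.8, 20.7 and 24.8 CPM in MEFs and 26.9, 29.2 and 29.9 CPM in mESCs. It was the tallest non-promoter peak of the locus in MEFs. The groups did not overlap on BGI (log2 fold change 0.27 ± 0.10, edgeR adjusted p = 0.0255). With Illumina reads they overlapped (0.19, adjusted p = 0.135), and the BGI call was lost without MEF 2 (adjusted p = 0.118) or mESC 5 (0.0753). The Illumina peak passed without MEF 4 (log2 fold change 0.29, adjusted p = 0.0234) and with fixed depths (0.0228), and ranged from 0.07 to 0.29 when single libraries were left out.

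MEF-biased peaks flanked Klf4 on both sides. The peak 43.6 kb downstream (chr4:55488572-55489073) had 9, 8.5 and 6.37 CPM in MEFs and 1.58, 1.36 and 1.8 CPM in mESCs (log2 fold change -2.40 ± 0.25 SE, edgeR adjusted p = 8e-08). Upstream, the peak at 9.4 kb (chr4:55541627-55542128) had 7.06, 5.72 and 3.88 CPM in MEFs and 0.808 to 1.2 CPM in mESCs. The peak at 10.5 kb (chr4:55542751-55543252), present in the BGI set only, had 7.48, 7.6 and 7.12 CPM in MEFs and 0.567, 0.65 and 0.559 CPM in mESCs. Its MEF level was 12.5 times the mESC level, the largest ratio in that direction at the 3 loci. In the coding sequence of Klf4, 2.0 kb after the start (chr4:55530183-55530684), MEFs were higher by less, at 17.3 ± 2.03 against 12.4 ± 2.05 CPM (log2 fold change -0.55 ± 0.15, adjusted p = 0.00332). A peak 1.4 kb upstream was lower in mESCs on BGI (-0.40, adjusted p = 0.0336) and did not pass on Illumina (-0.31, adjusted p = 0.151), and the BGI call was lost without MEF 4 (0.145), mESC 3 (0.192) or mESC 5 (0.0647). Leaving out single libraries gave log2 fold changes of -0.48 to -0.27 for BGI and -0.48 to -0.07 for Illumina reads, and the Illumina peak passed without MEF 1 (adjusted p = 0.0241).

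Klf5 had the only promoter called higher in mESCs on both platforms. Its promoter peak (chr14:99298347-99298848), over the start and 5′ UTR, had 59, 58.5 and 55.7 CPM in MEFs and 86.1, 100 and 79.2 CPM in mESCs. No MEF sample reached the lowest mESC sample. The log2 fold change was 0.55 ± 0.10 (SE) with BGI reads, at an edgeR adjusted p of 4.11e-05, and 0.50 ± 0.08 with Illumina reads, at 7.61e-06. On the same peak the order was MEF on Illumina (57.2 ± 1.52 CPM, SD, n = 3), MEF on BGI (57.7 ± 1.79), mESC on Illumina (84.4 ± 5.21) and mESC on BGI (88.6 ± 10.9), and only the step between the cell types was larger than the SDs beside it. A smaller peak 0.6 kb after the start moved the other way, with 12.5 ± 1.5 CPM in MEFs and 8.82 ± 1.73 CPM in mESCs (log2 fold change -0.57, adjusted p = 0.00527).

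Of the 6 distal Klf5 peaks 5 were higher in mESCs, all of them downstream of the start (45.5% of all other peaks were higher and 44.3% lower). The tallest, 26.1 kb downstream of the start and beyond the gene's end (chr14:99324505-99325006), had 5.68, 5.27 and 3.39 CPM in MEFs and 55, 50.2 and 47.7 CPM in mESCs. The groups were far apart (log2 fold change 3.34 ± 0.15 SE, edgeR adjusted p = 2.89e-12), and its mESC level was above that of every other distal member. The peak 22.2 kb downstream (chr14:99320654-99321155), whose KLF matches are shown above, had 0.923, 1.34 and 0.946 CPM in MEFs and 26.9, 28.9 and 26.2 CPM in mESCs, a log2 fold change of 4.60 ± 0.18. None of its bases were marked as repeats in the reference. Most of its KLF matches nevertheless lie in near-identical copies of a short run of letters, as the printed stretch shows.

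Inside the Klf5 gene, peaks 3.0 kb (chr14:99301419-99301920, coding sequence) and 14.5 kb after the start (chr14:99312985-99313486, coding sequence and UTR) rose from 2.06 ± 0.667 to 14.2 ± 2.29 CPM and from 0.599 ± 0.179 to 7.47 ± 2.1 CPM. The last member, 35.5 kb downstream, was in the BGI set only and went from 0.469 ± 0.0753 to 6.43 ± 0.995 CPM. The peak taller in MEFs lay 2.9 kb upstream (chr14:99295567-99296068), with 13.2, 13 and 11.7 CPM in MEFs and 3.34, 3.13 and 3.11 CPM in mESCs. Its log2 fold change was -2.05 ± 0.18, and it was the tallest non-promoter peak of the locus in MEFs.

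The peaks of each locus were also summed. Since most distal members entered through the mESC list alone, where they had to be high, the sums are a description. Peaks outside promoters at Klf2 summed to 27.1, 27 and 29.6 CPM in MEFs and to 144, 135 and 137 CPM in mESCs on BGI. At Klf4 the sums were 93.1, 87.9 and 91.5 against 232, 235 and 226 CPM, and at Klf5 22.5, 23.3 and 19.1 against 112, 114 and 103 CPM. The ratios of means were 4.97, 2.54 and 5.06, while those of the promoter peaks were 1.17, 1.04 and 1.39. The Klf4 sums count the bases shared by the peaks 54.7 and 55.0 kb downstream in both peaks, and without the latter the ratio of means was 2.17. The promoter sums at Klf2 and Klf4 overlapped between cell types and those at Klf5 did not. Illumina gave ratios of 3.62, 2.46 and 4.92 outside promoters. The Klf4 result rests on the wide region: with 20 kb around the gene body the log2 ratio of all peaks together was -0.118 in place of 0.94.

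**Figure D2:**
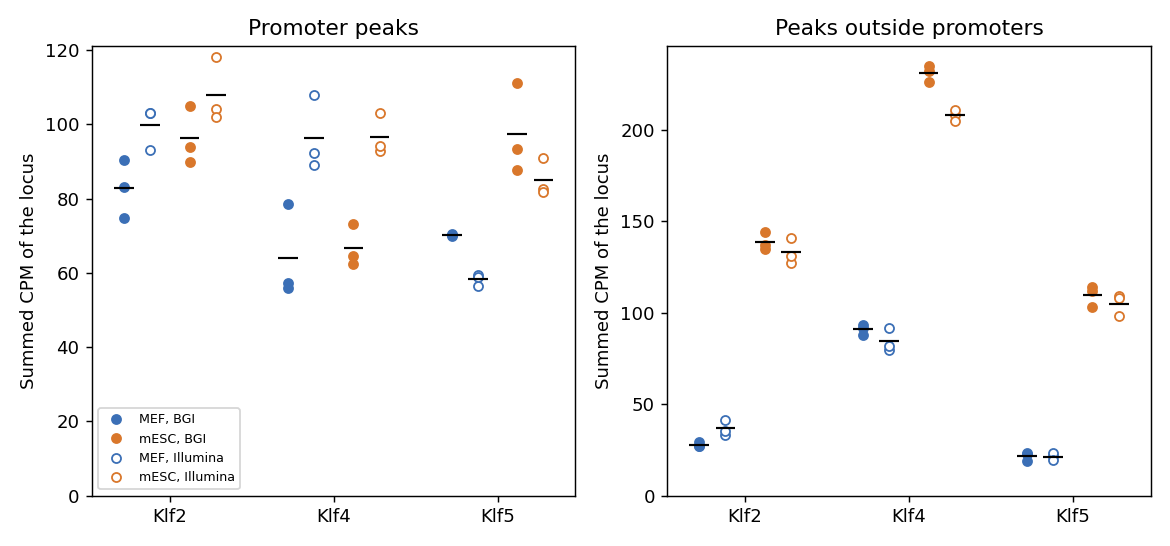
Summed CPM of each locus (y axis, from 0) in each sample, for promoter peaks (left) and other peaks (right), with filled points for BGI, open points for Illumina and bars at the mean of 3. On the right every mESC point is above every MEF point of its locus, while on the left the cell types separate on both platforms at Klf5 alone.

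The called summits were counted next. In a sample's own MACS2 peak calls on BGI, the Klf2 window held 13, 19 and 22 summits in MEFs and 51, 44 and 43 in mESCs. The Klf4 region held 24, 24 and 30 against 50, 47 and 49, and the Klf5 window 9, 7 and 7 against 38, 40 and 28. mESC samples had more summits at all 3 loci on both platforms. Over the whole genome they had 1.08 times as many as MEF samples on BGI and 1.14 times as many on Illumina. The size of the excess depended on what was counted: on BGI it was 28, 22.7 and 27.7 summits at Klf2, Klf4 and Klf5, 21, 12 and 8.33 when only summits at or above 10 in -log10 p were kept, and 8, 8.67 and 18.3 as distinct intervals. The part of depth, 45 M reads in mESC and 60 M in MEF samples, was not tested. The member peaks themselves entered through these calls, so their summits are given as a description. Of the 21 BGI members called higher, all had a summit in all 3 mESC samples, and 10 had none in any MEF sample, among them the Klf4 peaks 54.7, 55.0, 56.8 and 68.1 kb downstream. Of the 9 called lower, all had a summit in all 3 MEF samples and 4 had none in any mESC sample. At the peak 2.7 kb upstream of Klf2 the strongest summit had fold enrichments of 4.09, 4.33 and 3.35 in MEFs and 47.2, 61.6 and 53.2 in mESCs.

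**Figure D3:**
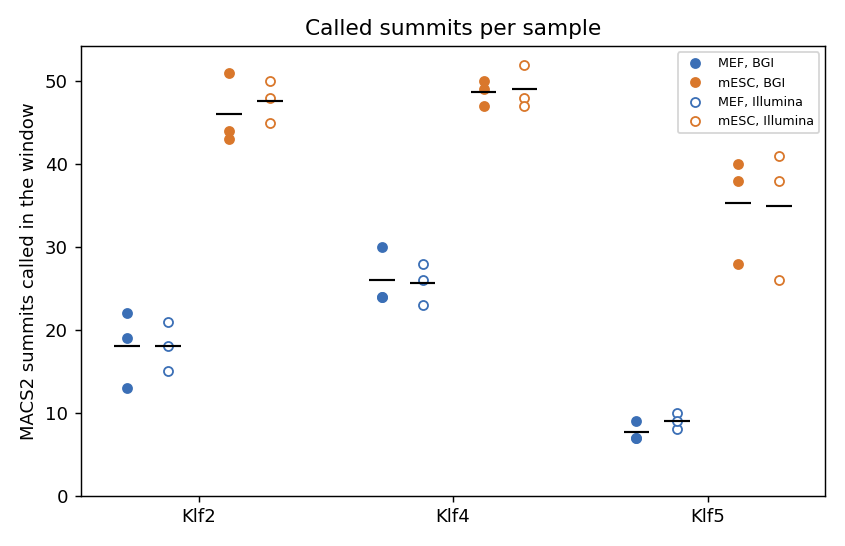
Number of MACS2 summits called in each window (y axis, from 0) per sample, with filled points for BGI, open points for Illumina and bars at the mean of 3. At each locus all mESC points are above all MEF points, and Klf5 ranges from 7 to 10 summits for MEFs and from 26 to 41 for mESCs.

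The platforms were then compared at the members, since each library was read on both. Of the 35 BGI members 30 had an Illumina peak with at least 50% overlap. Within a matched pair the log2 values differed by at most 0.64, at the Klf4 peak 56.8 kb downstream (5.37 on BGI and 6.01 on Illumina). A direct test of the platform difference, without pairing, called 0 members and 0% of all peaks (edgeR; 0 members and 2386 of 91354 peaks had an unadjusted p under 0.05). With the library as a replicate block it called 0 members and 353 peaks, or 0.386%, with 7 members and 12094 of all peaks (13.2%) at an unadjusted p under 0.05. The lowest adjusted p of a member with the block was 0.0672, at the Klf2 promoter peak, where the difference in the joint fit was 0.19 ± 0.05 (SE, with the block). This scale is shifted as a whole: the median difference without the block was 0.12 over the members and 0.11 over all peaks with TMM scaling, and -0.01 over all peaks with RLE scaling.

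**Figure D4:**
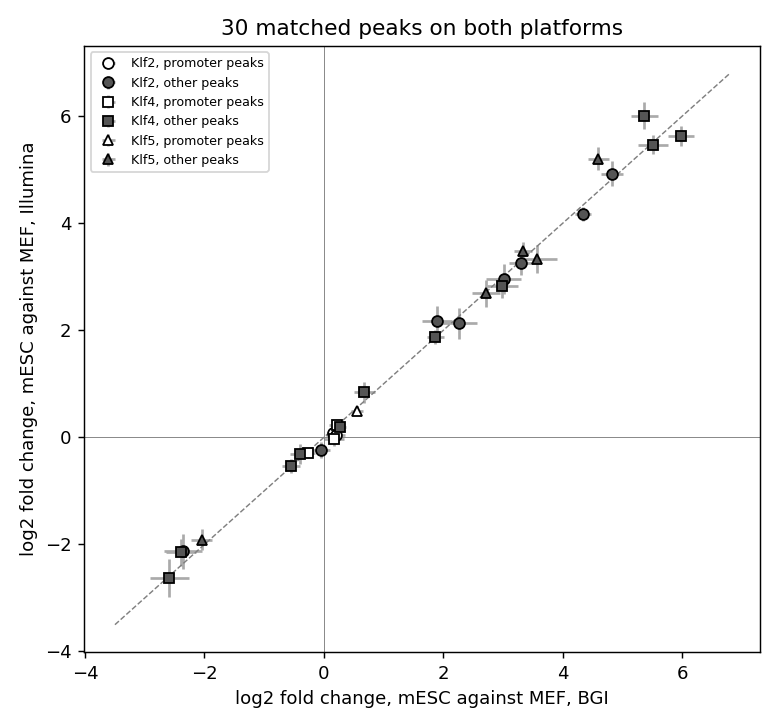
log2 fold change of mESC against MEF on BGI (x axis) and Illumina (y axis) for the 30 matched members, with bars of 1 SE, open symbols for promoter peaks and a dashed line of equality. The points follow the line from about -2.6 to 6, and promoter peaks lie near 0.

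Promoter members were richer in CpG sites than the others. The 7 promoter members had a median GC content of 69.7% and 50 CpG sites, against 58.8% and 26 over all promoter peaks, and the 28 others 50.4% and 8, against 48.8% and 7. Over their full 502 bp, 13 of the 35 BGI members (37.1%) held a KLF match, against 25.1% of all 91285 peaks on assembled chromosomes, and 17 (48.6%) a TEAD match, against 31.7%. In the middle stretch alone the KLF share was lower in members than in all peaks, 11.4% against 13.5%, and the TEAD share was 25.7% against 18.5%. A SOX match was in 8 of the 20 distal members higher in mESCs (40%) and in 0 of the 7 lower, against 24% of all peaks outside promoters. AP-1 matches were in 8 members (22.9%, against 25.2%), 1 member held an octamer (3.21% of all peaks), 7.9 kb upstream of Klf2, and no BGI member held the ESRRB or STAT letters, which 1.42% and 2.09% of all peaks hold. In the Illumina set, a peak 27.1 kb downstream of the Klf5 start, higher in mESCs (log2 fold change 2.79), held 1 ESRRB match.

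Other Krüppel-like and SP factors, which bind related sites, did not move in 1 direction at their promoters. Of 23 further family genes 22 had a promoter peak on BGI, with 8 higher, 9 lower and 5 not past the test, and a median log2 fold change of -0.03. Among all 17272 genes with a promoter peak 27.8% were higher and 42.7% lower, with a median of -0.15. Klf17, a germline and early embryo factor, was near 0 in MEFs and low in mESCs (0.646 ± 0.326 and 6.86 ± 0.876 CPM, log2 fold change 3.33), and on the same scale Klf8 rose by 1.37 and Klf12 by 0.86, while Klf11 fell by 0.91 and Klf7 by 0.60. Of 17 genes of the naive pluripotency network 12 were higher, 2 lower and 3 not past the test, with a median of 1.8, beside the same 27.8% and 42.7% over all genes. The promoters of Esrrb (6.12), Zfp42 (5.38) and Nanog (4.46) changed far more than those of Klf2 (0.15), Klf4 (-0.27) and Klf5 (0.55). Tbx3 and Stat3 were lower in mESCs (-0.52 and -0.34). Socs3 did not pass on BGI, nor did Lifr and Il6st, which carry LIF signals.

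Among 15125 protein-coding genes with a promoter peak, those nearest in level over the 12 samples (Euclidean distance of log2 CPM) were Klf9, Lims1 and Pank2 for Klf2, Cdon, Ssbp3 and Zmynd19 for Klf4 and Ell2, Arl15 and Vgll3 for Klf5. The closest of these 9 was Klf9 to Klf2, at a distance of 0.18, with 66.2 ± 6.5 CPM in MEFs and 78.7 ± 6.06 CPM in mESCs (SD, n = 3).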

How the data were processed

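Per the study's methods, the authors cut the 150 bp Illumina reads to 100 bp, aligned with Bowtie2 to GRCm38 (mm10 in the submitters' processing notes, which also name MACS2), dropped duplicate and mitochondrial reads and down-sampled each MEF sample to 60 M and each mESC sample to 45 M reads. Peaks were called per sample. The deposited tables hold raw counts of every sample in fixed-width peaks reproducible in either cell type, without normalization. The deposited peak calls give each summit's fold enrichment as a ratio, its −log10 p and q and a score. For reproducible peaks of a group only positions were deposited. The methods call the 3 libraries per cell type biological replicates. Columns that name no platform were assigned to Illumina by elimination, and this assignment was checked. In each library the ratio of the 2 columns followed the ratio of the summits' fold enrichment across peaks (Spearman rho 0.757 to 0.799, across peaks). No 2 samples held identical counts.

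CPM used the reads in peaks. Peaks were tested with edgeR 4.0.16 (quasi-likelihood, TMM, default filter, two-sided, Benjamini-Hochberg over all peaks of the set), and DESeq2 1.42.0 was an alternative. SEs are the log2 fold change over the root of F. In simulated data 91% of 200 BGI peaks changed by 1 on the log2 scale were recovered, 83% on Illumina and 28.5% for the platform difference. The simulated counts had the same dispersion at every peak and no shared libraries, so these shares do not measure detection in the real samples. Samples of a library correlated between platforms after removal of group means (r = 0.453 to 0.727; other pairs -0.539 to 0.118), since the numbers mark shared libraries. Named were, per locus, the tallest promoter peak, the tallest other peak in each cell type, up to 4 peaks per direction with the largest BGI change called on both platforms, and peaks called on 1 platform. Other peaks named were chosen after their values were seen. Members and gene lists were chosen with earlier results of these data known. Alternatives were other scaling, filters, windows, fixed depths, the other platform's samples, summed runs and leaving out each library.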

Additional observations from a re-analysis of the deposited data

How the results depend on the processing

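Among 945 refits of single members, 881 kept direction and side of the threshold, 36 lost and 15 gained a call and 13 changed sign. The 881 include 35 refits per platform without the filter on low counts, which could not differ because that filter removed no peak. With windows of 10 kb the members called higher numbered 9 on BGI and 11 on Illumina and those lower 4 on Illumina, and with 50 kb 34 were higher on Illumina, because other peaks were counted. A required log2 fold change of 1 left 5 members lower and 18 higher on BGI, beside 24902 lower and 27482 higher of all 91354 peaks. The log2 ratio of summed CPM, 1.09, 0.94 and 1.17 at Klf2, Klf4 and Klf5, was 0.82 at Klf2 and 0.75 at Klf4 on Illumina, 0.89 and -0.14 with 10 kb, -0.118 at Klf4 with 20 kb around the body, and 0.93 at Klf2 and 1.39 at Klf5 with 50 kb. Without 1 of the 2 overlapping Klf4 peaks, an alternative chosen after seeing the data, it was 0.77. The excess of mESC summits, 28, 22.7 and 27.7, was 21, 12 and 8.33 at a -log10 p of at least 10 and 8, 8.67 and 18.3 as distinct intervals. In the middle stretch of the peaks KLF matches were in 11.4% of members, against 13.5% of all peaks, and octamers in 0% in place of 2.86%. Sign changes were at small values: with BGI peaks read in Illumina samples the peak 0.6 kb after the Klf2 start gave -0.017 and that 1.0 kb after the Klf4 start -0.031, and the Illumina peak there gave 0.117 in BGI samples and 0.003 with a mean count of at least 50. At fixed depths that peak and the BGI peak 1.4 kb after the Klf2 start both gave 0.094. Leaving out single libraries gave -0.094 to 0.047 at the latter, -0.163 to 0.057 at the former, and -0.047 to 0.129 and -0.036 to 0.093 at the Illumina peaks 0.1 kb before and 0.5 kb after the Klf2 start. The cause of these changes was not tested. With fixed depths the median over all peaks was 0.06 rather than -0.08 on BGI, and 0.09 rather than -0.03 with Illumina reads. The replicate block changed no call of a member, at 0 with it and 0 without.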
